A study of Mus musculus with 2 samples.

Results

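Levels of 8 intermediate filament genes, Vim, Nes, Gfap, Synm, Des, Krt15, Krt18 and Krt8, were compared across the ependymal, endothelial and mural cells of the adult mouse spinal cord. The genes were chosen by name from the 24071 genes listed in either library, and all 8 had counts in the non-traced library while 7 (all but Krt15) had counts in the traced library. The cells came from 10- to 12-week-old C57BL/6j mice in which both Clec9a alleles carry cre and both R26 alleles carry LSL-tdTomato, so that a cell whose ancestors expressed DNGR-1, the product of Clec9a, is labelled with tdTomato. Both groups share this genotype, and both were sorted as viable, CD45- and CD133+ cells after bead removal of myelin. They differ only in the label, CD133+ non-traced against CD133+ DNGR-1 traced, and each group is 1 library made with the 10x Genomics Chromium 3′ chemistry. The sources used here do not give the number of animals behind each tube.

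Intermediate filaments are flexible cytoplasmic ropes that carry mechanical load and anchor to desmosomes, adhesion plaques and the nucleus. Vimentin, desmin and GFAP assemble on their own, nestin and synemin need such a partner, and keratins assemble only as pairs of an acidic and a basic chain. Nestin and vimentin are widely used as markers of neural stem and progenitor cells, GFAP of astrocytes, desmin of muscle and mural cells, and keratins 8 and 18 of simple epithelia. The ependyma, a ciliated epithelium of neural origin, lines the central canal, and its floor plate-like and roof plate-like cells sit at the ventral and dorsal midline.

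Sequencing gave 25411 non-traced and 4825 traced cells, whose median depths were 7218 and 8566 UMIs (unique transcript molecules counted per cell). Cells were classed by marker genes that exclude all intermediate filament genes. Ependymal-like cells were 4.53% of the non-traced and 98.67% of the traced library, and 14.11% of non-traced cells carried markers of several classes or of none and were left out of the comparisons. Among ependymal-like cells, a floor plate-like, a roof plate-like, an Anxa8-high and a cycling subtype were named, and the remaining cells, 678 non-traced and 3652 traced, matched none of these marker lists. Of the 678, 561 lay in 1 sub-cluster whose leading genes (Cldn5, Ly6c1, Flt1, Ly6a) are endothelial, which is why the traced cells are taken first below and the non-traced ependymal values are also given without it. Endothelial-like cells (20313 non-traced, 48 traced) were divided into arterial, capillary and venous segments, and mural-like cells (329, non-traced only) into 161 pericyte-like and 168 smooth muscle-like cells. Prom1, which encodes the sorted antigen CD133, stood at 335 counts per 1000000 UMIs (CPM) in non-traced endothelial-like cells against 53.6 CPM in pericyte-like and 7.80 CPM in traced remaining ependymal cells. The tdTomato row gave 72.9 CPM in non-traced ependymal-like cells, 65.3 CPM in endothelial-like cells and 332 CPM in traced remaining ependymal cells. The libraries shared 42 barcodes, and leaving these cells out changed no count of members given here.

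All levels are CPM of UMIs summed over the cells of a class, with an exact 95% Poisson interval, and ratios carry an exact 95% interval. These intervals cover counting error only, and with 1 library per group no difference between classes or libraries has a replicate check or a p-value. Each gene is compared between cell classes, never with another gene. A difference was called past 2-fold when log2(CPM + 1) differed by at least 1 and either class reached 5 CPM, and the share of all such genes past 2-fold in the same comparison is given as the background.

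**Figure D1:**
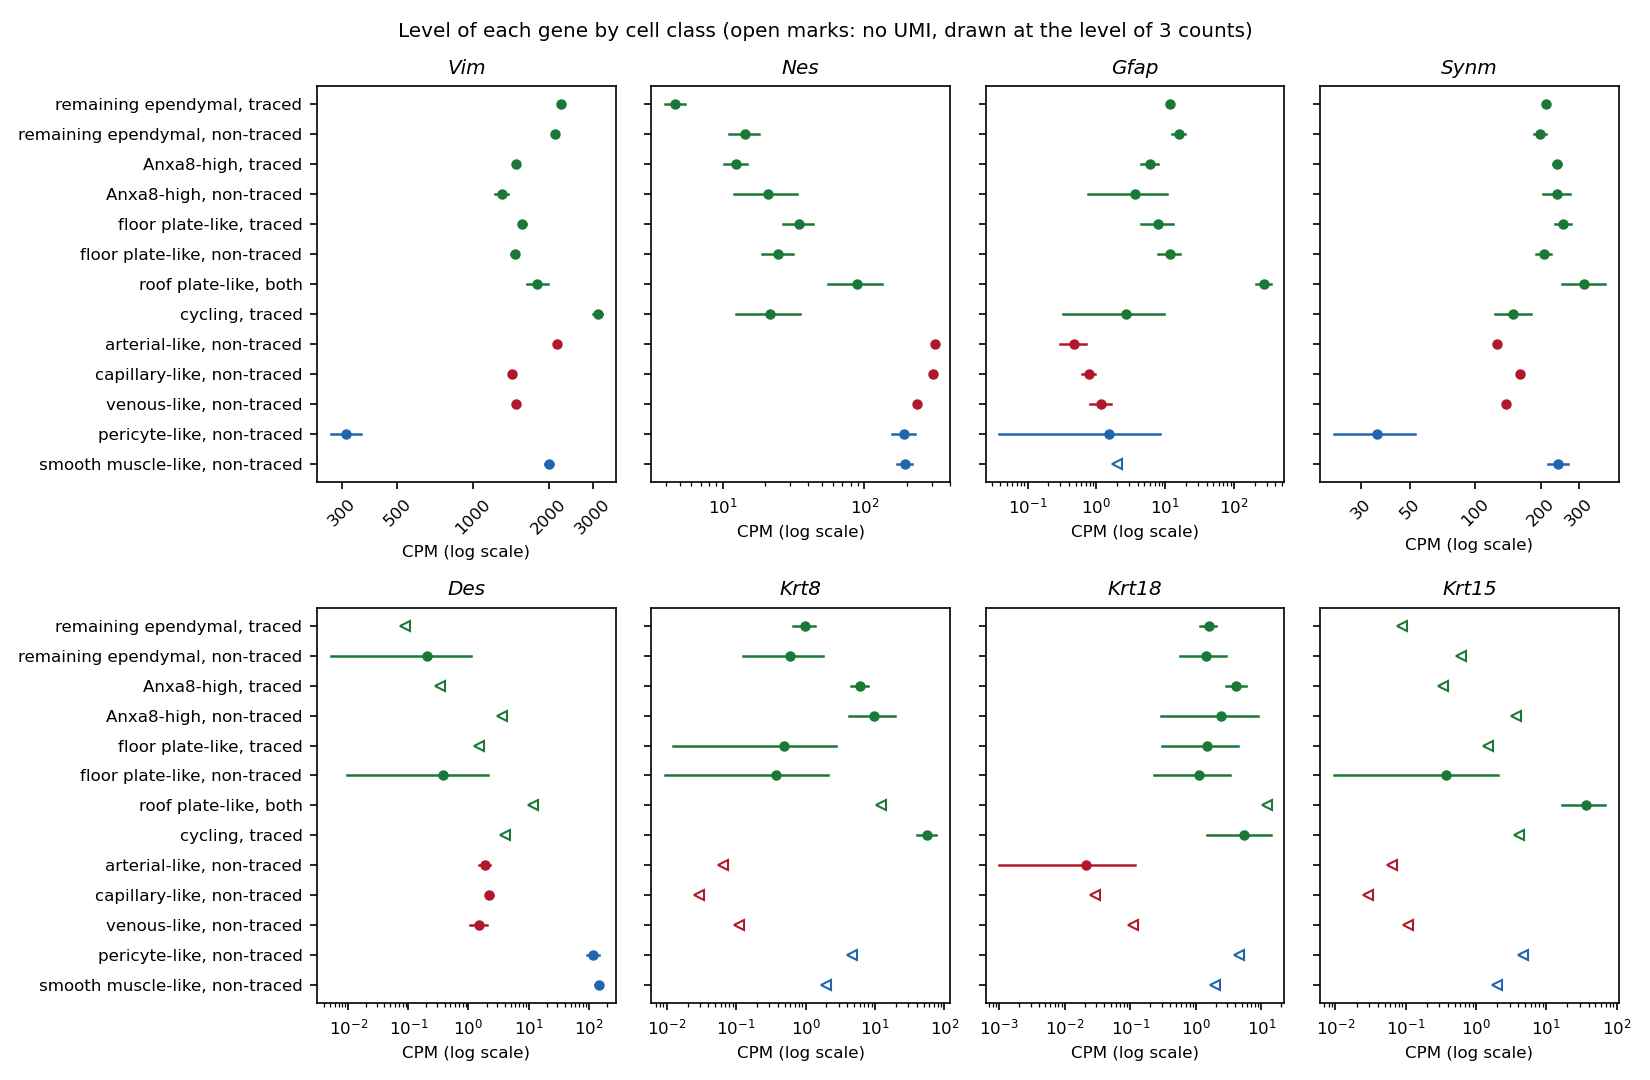
Levels of the 8 genes in each cell class of each library, in CPM on a log axis, with exact 95% Poisson intervals. Each panel is 1 gene, colours mark ependymal (green), endothelial (red) and mural (blue) classes, and open triangles mark classes with no UMI at the level of 3 counts. Vim was at or above 312 CPM in every ependymal, endothelial and mural class, Des was highest in the mural classes (119.5 and 146 CPM), and Krt8 in cycling ependymal cells (56.7 CPM).

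Vim, on chromosome 2 at 13573927-13582826 of GRCm38 (plus strand), encodes vimentin, the filament protein of mesenchymal, endothelial and many glial cells. In the traced library it stood at 2243 CPM (2228 to 2259) in the remaining ependymal cells, 1488 CPM in Anxa8-high cells, 1570 CPM in floor plate-like cells, 2069 CPM in the 10 roof plate-like cells and 3130 CPM (3004 to 3260) in the 52 cycling cells. In the non-traced library, where no cells were classed as cycling, the other classes stood at 2113, 1301, 1464 and 1369 CPM. The order of remaining, floor plate-like and Anxa8-high cells was the same in both libraries. Floor plate-like cells held 0.70 times the level of the remaining cells in the traced library (0.675 to 0.725) and 0.693 times in the non-traced library. Anxa8-high cells, named for the membrane-binding protein annexin A8, held 0.663 times in the traced and 0.616 times in the non-traced library. Traced against non-traced remaining cells, the ratio was 1.06, closer to 1 than these subtype ratios, whereas the few roof plate-like cells differed more between libraries.

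Within the endothelium, Vim was higher in arteries than in capillaries or veins. Arterial cells stood at 2156 CPM, capillary cells at 1425 CPM and venous cells at 1488 CPM, and the 17 cells with an interferon response stood at 1341 CPM. The arterial-to-capillary ratio was 1.51 (1.501 to 1.525), below the 2-fold mark. The arterial sub-clusters were spread more widely than the segments, from 1873 CPM in the 2200 cells led by Igfbp3, through 2078 CPM in those led by Gkn3 and 2681 CPM in those led by Pi16, to 3286 CPM in the 569 cells led by Mgp, which encodes matrix Gla protein, an inhibitor of vascular calcification. Each of the 4 arterial sub-clusters stood above all 5 capillary sub-clusters, which ran from 1306 to 1651 CPM, and above both venous ones at 1309 and 1496 CPM. The 23 arterial and 21 capillary cells of the traced library had the same order, 2565 against 1620 CPM. Non-traced ependymal-like cells as a whole, at 1824 CPM, were 1.12 times the 1628 CPM of endothelial-like cells.

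Mural cells split into a low and a high class for Vim. Pericyte-like cells, which wrap capillaries, stood at 312 CPM (271 to 358), and smooth muscle-like cells, which wrap arteries, stood at 2003 CPM (1932 to 2075). The ratio of smooth muscle-like to pericyte-like cells was 6.41 (5.56 to 7.42), and endothelial-like cells were 5.21 times pericyte-like cells (4.54 to 6.01). To compare shares of cells at 1 depth, each cell was thinned to 1000 UMIs. A Vim UMI was then found in 22.4% of pericyte-like, 77.4% of smooth muscle-like, 74.4% of endothelial-like, 87.5% of traced remaining ependymal and 96.2% of cycling cells. Before thinning, 55.9% of pericyte-like cells had a Vim UMI at a median of 4015 UMIs per cell, against a median of 7835 in smooth muscle-like cells.

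**Figure D2:**
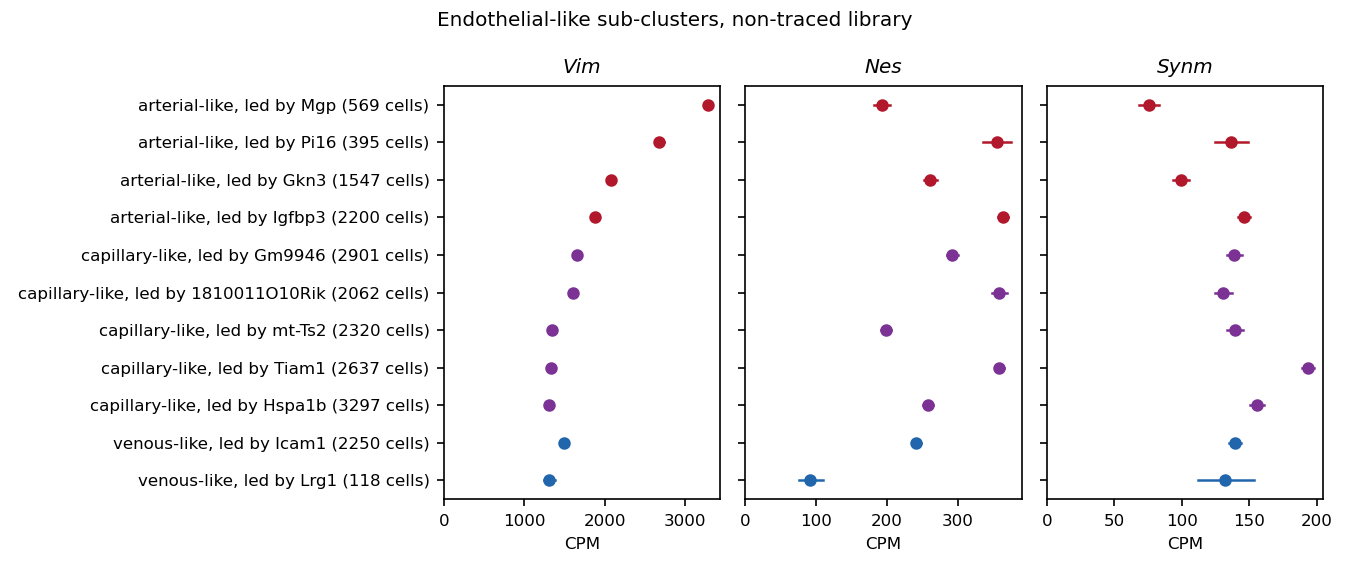
Levels of Vim, Nes and Synm (1 panel each) in each sub-cluster of the non-traced endothelial-like cells, in CPM with exact 95% Poisson intervals, coloured by segment (arterial red, capillary purple, venous blue) and named by a leading gene. Vim was highest in the arterial sub-cluster led by Mgp (3286 CPM), where Nes (193 CPM) and Synm (75.6 CPM) stood low.

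Nes, on chromosome 3 at 87971078-87980451 (plus strand), encodes nestin, which joins vimentin or desmin filaments and cannot assemble alone. It was far higher in endothelium than in ependyma: 296 CPM in non-traced endothelial-like cells against 19.4 CPM in non-traced ependymal-like cells, a ratio of 15.3 (13.1 to 17.9). The 48 endothelial-like cells of the traced library stood at 356.5 CPM, 44.9 times the traced ependymal-like cells (37.1 to 54.2). Of 4 counted members, 2 (Nes and Gfap) were past 2-fold in that comparison, beside 52.6% of all genes. After thinning, 23.7% of endothelial-like cells had a Nes UMI (78.2% before thinning), against 1.18% of the non-traced and 0.520% of the traced remaining ependymal cells. Gfap counts in the same endothelial-like cells, which should lack that astrocyte gene, were found in 0.0443% of thinned cells and 0.635% of unthinned ones, at a median of 6884 UMIs.

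Among vessel segments, Nes was nearly level between arteries (317 CPM) and capillaries (303 CPM), and lower in veins (234 CPM), at 0.774 times the capillary level (0.753 to 0.795). None of 3 counted members was past 2-fold in veins or in arteries against capillaries, beside 2.29% and 4.2% of all genes. Sub-clusters showed a wider spread: among arteries 363 CPM in cells led by Igfbp3 against 193 CPM in those led by Mgp, the reverse of their order for Vim, and among capillaries 358 CPM in those led by Tiam1 against 198 CPM in those led by mt-Ts2. The lowest sub-cluster was venous, the 118 cells led by Lrg1 and Ackr1, genes of venous endothelium, at 91.1 CPM (75.0 to 109.7) against 241 CPM in the other venous cells.

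Nes in the ependyma depended on position and on the library. In the traced library it stood at 4.62 CPM (3.93 to 5.40, 157 UMIs) in the remaining cells, 12.4 CPM in Anxa8-high cells, 34.4 CPM (26.8 to 43.5) in floor plate-like cells, 64.7 CPM in roof plate-like cells and 21.6 CPM in cycling cells (16 UMIs in 11 of 52 cells). Each subtype was thus above the remaining cells, floor plate-like cells by 7.45 times (5.54 to 9.93) and Anxa8-high cells by 2.69 times (2.09 to 3.45). In the non-traced library the gradient was shallower, with 14.3 CPM in the remaining, 20.8 CPM in Anxa8-high and 24.6 CPM in floor plate-like cells, and floor plate-like cells were 1.72 times the remaining cells (1.21 to 2.44). The 19 roof plate-like cells of both libraries together held 22 Nes UMIs in 14 cells, or 88.4 CPM, 15.1 times the remaining cells of both libraries (9.28 to 23.4). After thinning, a Nes UMI was found in 2.96% of traced and 2.43% of non-traced floor plate-like cells (22.2% of traced ones before thinning, at a median of 8671 UMIs).

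Nes was also the single member past 2-fold between the libraries. Non-traced remaining cells were 3.09 times traced remaining cells (2.30 to 4.12). Without the sub-cluster led by endothelial genes, 117 non-traced cells still gave 23.4 CPM on 24 UMIs, 5.06 times the traced level (3.15 to 7.81). This level rested largely on 6 cells of a sub-cluster led by the replication genes Hells, Stmn1 and Mcm3. The other sub-clusters, of 22, 27, 44 and 18 cells, held 3, 1, 2 and 5 Nes UMIs, and the 6 cells held the rest of the 24. Floor plate-like cells did not share the direction of the remaining cells, with a traced-to-non-traced ratio of 1.40 whose interval (0.985 to 1.99) holds 1. Nor was the Anxa8-high ratio of 0.596 (0.356 to 1.06) clear of 1. Of 4 counted members, 1 was past 2-fold between all ependymal-like cells, beside 2.85% of all genes, and likewise 1 of 4 between the remaining cells (2.13%) and between these without the endothelial-led sub-cluster (4.59%). No counted member was past 2-fold between the libraries in floor plate-like cells (0 of 4, beside 4.23%) or Anxa8-high cells (0 of 5, beside 6%). The Anxa8-high count depended on the classes: after Seurat integration 2 members were past 2-fold, Nes (log2 -3.17) and Gfap (-2.06), and without cells with 2 endothelial markers 1 was (Nes). Endothelial RNA also differed between the libraries. In non-traced remaining cells, 10 endothelial markers stood at 1.16% to 7.61% of their endothelial level (median 2.01%), and none was at 0. In traced remaining cells they stood at 0% to 5.20% (median 0.018%). Nes in the same non-traced cells stood at 4.83% of its endothelial level, inside the range of those markers. It stood above the range in all non-traced ependymal-like cells (6.55% against a highest marker of 5.80%). In the 117 cells left without the endothelial-led sub-cluster it stood at 7.90% against a highest marker of 6.55%. That share rests largely on the 6 cells led by Hells, and it was not computed without them. In floor plate-like cells Nes stood above that range in both libraries, at 8.31% against a highest marker of 4.75% in the non-traced and at 11.6% against 1.27% in the traced library. With a pseudocount of 10 the Nes difference was no longer past 2-fold in all ependymal-like or all remaining cells (log2 -0.71 and -0.73). It still was without the endothelial-led sub-cluster (-1.19), with the 6 cells led by Hells among those left. Within the non-traced library, remaining cells of the endothelial-led sub-cluster had a marker median of 2.16% and Nes at 11.9 CPM. The other 117 cells had a median of 1.56% and Nes at 23.4 CPM, with most of the Nes UMIs in the 6 cells led by Hells. Without cells that had a UMI of at least 2 endothelial markers, 218 non-traced remaining cells stood at 16.85 CPM for Nes (10.8 to 25.1), and 3625 traced ones at 4.66 CPM. The part of endothelial RNA in the Nes difference between libraries was not tested.

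**Figure D3:**
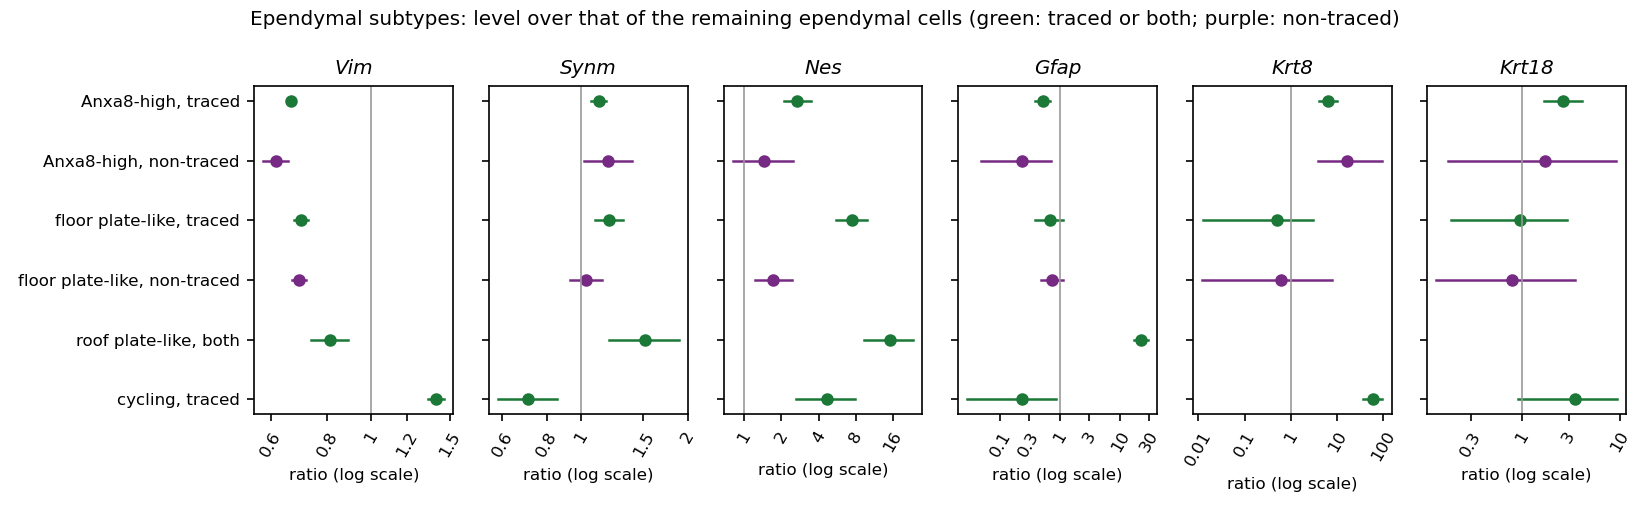
Ratios of CPM of each ependymal subtype to the remaining ependymal cells for 6 members, on log axes that differ between panels, with exact 95% intervals for counting error and a line at 1. Nes in floor plate-like cells stands at 7.45 in the traced library (green) and 1.72 in the non-traced library (purple), while Vim in these cells lies at 0.70 and 0.693.

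Synm, on chromosome 7 at 67730160-67759742 (minus strand), encodes synemin, a large partner of vimentin and desmin that binds the dystrophin complex and focal adhesions. It was present throughout the ependyma with little spread, at 211 CPM in the traced remaining cells, 237 CPM in Anxa8-high cells and 253 CPM in floor plate-like cells, and at 199, 238 and 206 CPM in the same non-traced classes. The roof plate-like cells stood highest, at 1.51 times the remaining cells (1.197 to 1.888), and the cycling cells lowest, at 150 CPM (123 to 181) or 0.686 times the other traced ependymal cells (0.563 to 0.826). Cycling cells thus had more Vim but less Synm than other ependymal cells, with the Synm difference below 2-fold.

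Across endothelial segments, Synm was lowest where Vim was highest, in arteries. Endothelial-like cells stood at 147.5 CPM, with capillaries at 160 CPM, veins at 139 CPM and arteries at 126 CPM, and the sub-cluster led by Mgp, at the top for Vim, stood at 75.6 CPM. Ependymal-like cells were 1.40 times endothelial-like cells (1.33 to 1.47). Smooth muscle-like cells stood at 241 CPM and pericyte-like cells at 35.2 CPM on 23 UMIs, a ratio of 6.85 (4.50 to 10.95), and endothelial-like cells were 4.19 times pericyte-like cells (2.79 to 6.61). Vim and Synm were thus the members past 2-fold between the mural classes, 2 of 4 counted, beside 23.3% of all genes.

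Des, on chromosome 1 at 75360329-75368579 (plus strand), encodes desmin, the filament protein of muscle cells and pericytes. It separated the mural cells from every other class, although it was not used to name them. Pericyte-like cells stood at 119.5 CPM (94.4 to 149.1) and smooth muscle-like cells at 146 CPM (127 to 167), against 2.01 CPM in endothelial-like cells. The corresponding ratios were 59.4 (45.9 to 76.1) and 72.6 (61.1 to 86.1), and the mural classes stood within counting error of each other (1.22, 0.94 to 1.60). On the log2 scale that difference was 0.29, but 0.89 after Seurat integration and 1.31, past 2-fold, without cells with 2 endothelial markers. Non-traced ependymal-like cells held 2 Des UMIs and traced ones none. After thinning, 13.0% of pericyte-like and 12.5% of smooth muscle-like cells had a Des UMI against 0.177% of endothelial-like cells and 0 of 1151 non-traced ependymal-like cells, which allows a share of up to 0.261%. Unthinned shares were 32.3%, 50.6% and 1.58% in pericyte-like, smooth muscle-like and endothelial-like cells.

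Unlike Vim and Synm, Nes was level between the mural classes, at 190 CPM in pericyte-like and 192 CPM in smooth muscle-like cells (ratio 1.01, 0.817 to 1.26), or 0.641 and 0.649 times the endothelial level. Against endothelial-like cells, pericyte-like cells had 3 of 4 counted members past 2-fold (Vim and Synm lower, Des higher) beside 32.6% of all genes, and smooth muscle-like cells had 1 (Des higher) beside 27.5%. For all mural-like cells pooled it was again Des alone, beside 27.4%. The mural cells of this CD133+ sort also carried endothelial RNA. The 10 endothelial markers stood at 9.12% to 55.9% of their endothelial level in pericyte-like cells (median 15.1%) and at 25.2% to 52.8% in smooth muscle-like cells (median 27.4%), and Nes stood at 64.1% and 64.9%, above both ranges. Few mural cells were free of such markers: without cells that had a UMI of at least 2 of them, 18 pericyte-like and 9 smooth muscle-like cells were left. Des then stood at 135 CPM (54.3 to 278) and 336 CPM (188 to 554.5), and Vim at 174 CPM on 9 UMIs and at 2309 CPM (1884 to 2800), so that the contrasts in both genes were as large in these cells. Nes stood at 96.4 CPM in the pericyte-like (31.3 to 225) and 67.2 CPM in the smooth muscle-like cells (3 UMIs, 13.9 to 196.5). Both values were less than in the full classes, but the intervals hold the full-class levels. Synm in smooth muscle-like cells was 89.7 CPM (4 UMIs, 24.4 to 229.5), where the full class had been above the endothelial level. This interval holds the endothelial level, so the side on which Synm lies in these cells is not settled.

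**Figure D4:**
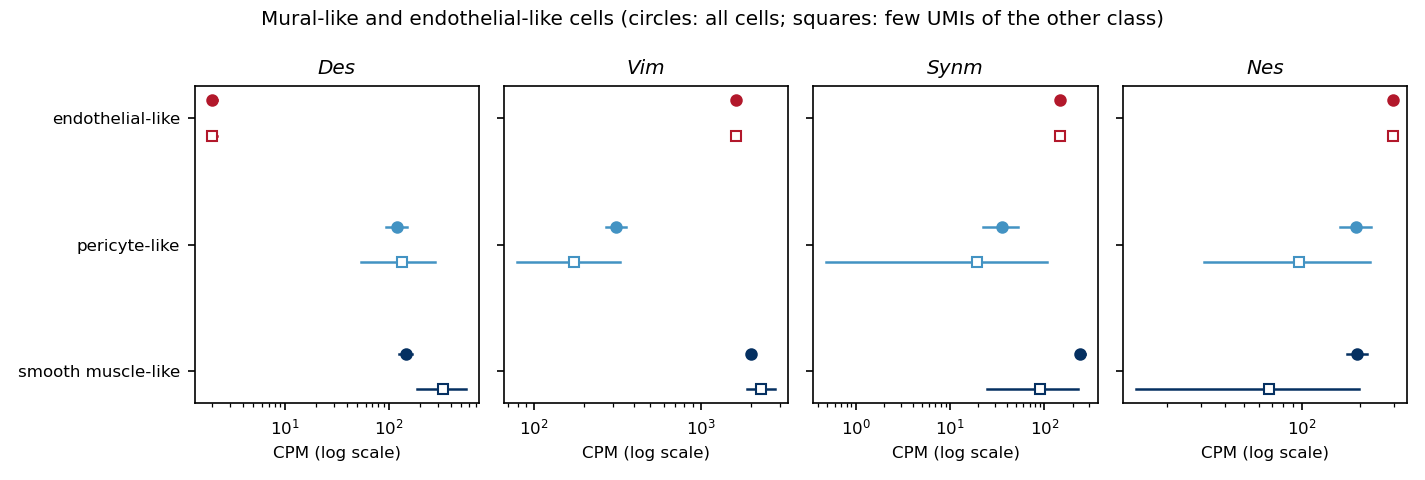
Levels of Vim, Nes, Synm and Des in pericyte-like, smooth muscle-like and endothelial-like cells of the non-traced library, in CPM on a log axis with exact 95% Poisson intervals, for all cells (circles) and for cells with a UMI of at most 1 marker of the other class (squares; endothelial markers for mural-like and ependymal markers for endothelial-like cells). Vim and Synm differ between the mural classes (ratios 6.41 and 6.85), Nes is level (1.01), and Des stands 59.4 and 72.6 times above endothelium.

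Gfap, on chromosome 11 at 102887336-102900912 (minus strand), encodes the filament protein of astrocytes. It was low in most ependymal cells, at 11.6 CPM (394 UMIs) in traced and 15.7 CPM in non-traced remaining cells, 7.87 and 11.6 CPM in floor plate-like cells, and 5.93 and 3.68 CPM in Anxa8-high cells. Even so, non-traced ependymal-like cells were 20.9 times endothelial-like cells (16.3 to 26.8), which stood at 0.749 CPM. Pericyte-like cells held 1 Gfap UMI and smooth muscle-like cells none. Thinned shares were 0.822% of traced and 1.48% of non-traced remaining cells, against 0.0443% of endothelial-like cells, and unthinned shares were 6.41%, 7.52% and 0.635%. Gfap and Nes thus lay on opposite sides between non-traced ependymal-like and endothelial-like cells, 2 of 4 counted members past 2-fold, beside 48% of all genes, a share of members near the background.

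Roof plate-like cells were the ependymal class with high Gfap. Over both libraries the 19 cells held 67 Gfap UMIs in 13 cells, or 269 CPM (208.6 to 341.9), 22.2 times the remaining cells (16.9 to 28.7). One traced cell held 38 of these UMIs, and the other traced cells held at most 2 each, while the 9 non-traced cells ran from 0 to 8. Without the top cell the level of both libraries was 124.5 CPM, and that of the traced cells dropped from 291 to 50.5 CPM. The summed level of 10 astrocyte markers was 1615 CPM in these 19 cells (4 of 10 markers at 0) against 518.7 CPM in the remaining cells, and its part in the Gfap level was not tested. Counted against the remaining cells, 3 of 5 members (Gfap, Nes and Krt15) were past 2-fold in roof plate-like cells, beside 18.7% of all genes. In floor plate-like cells 1 of 4 (Nes) was in the traced library, beside 6.47%, and 0 of 4 in the non-traced library, beside 5.97%.

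Krt15, on chromosome 11 at 100131758-100135928 (minus strand), encodes an acidic keratin known from basal cells of stratified epithelia. It was listed in the non-traced library only, with 12 UMIs in all. Of these, 9 came from 2 of the 9 roof plate-like cells (7 and 2 UMIs), 1 from a floor plate-like cell and 2 from cells with both ependymal and endothelial markers. The 10 traced roof plate-like cells held none, so the Krt15 level of roof plate-like cells, 36.2 CPM over both libraries, rests on 2 cells. Both carried at least 2 endothelial markers, and without such cells the 13 roof plate-like cells left held no Krt15 UMI and the difference was no longer past 2-fold.

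Krt8 and Krt18 encode the basic and acidic chain of the filament of simple epithelia, and lie 23697 bases apart on chromosome 15 (Krt8 at 101996698-102004482 on the minus strand, Krt18 at 102028180-102032027 on the plus strand). Both were rare. Krt8 had 130 UMIs in the 4761 traced ependymal-like cells (2.84 CPM) and no UMI in endothelial-like or mural-like cells of the non-traced library. The ependymal-like cells of that library held 12 Krt8 UMIs (1.40 CPM). That level is 82.96 times a floor of 3 counts over the endothelial-like cells, without allowance for counting error in the 12 UMIs. In the much smaller mural-like class the same floor amounts to 1.38 CPM, so a lower level was not detectable at this depth. For Krt18, the traced ependymal-like cells gave 97 UMIs (2.12 CPM), the non-traced ones 12 (1.40 CPM) and endothelial-like cells 1. Krt8 has a near-identical pseudogene copy in the annotation, so its counts carry the uncertainty of how reads were assigned between such copies.

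Krt8 stood at its highest level in the cycling ependymal cells, a class made of traced cells. The cluster behind it, led by Mki67, Hist1h1b, Top2a and Cenpf and also by the immune genes Lyz2, S100a8 and S100a9, held 22 non-traced cells too, but these carried endothelial as well as ependymal markers, so the naming rule called them mixed and they were left out. The 52 traced cells, 1.092% of the traced ependymal-like cells, held 42 of the 130 UMIs, or 56.7 CPM, against 0.971 CPM in the remaining cells, a ratio of 58.4, and 29.1 times the level of all other traced ependymal cells (19.6 to 42.5). The UMIs came from 10 cells, which held 17, 8, 6, 3, 2, 2, 1, 1, 1 and 1, and without the top cell the level was 34.8 CPM. The cycling cells were deeper, with a median of 12080 UMIs against 8358.5 in the remaining cells. After thinning, 5.77% of cycling cells (3 of 52) had a Krt8 UMI against 0.110% of remaining cells, and unthinned shares were 19.2% and 0.767%. Krt18 in cycling cells rested on 4 UMIs (5.40 CPM, 2.62 times other ependymal cells, 0.70 to 6.94), and of the 10 cycling cells with Krt8, 2 also had Krt18.

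Beside Krt8, cycling cells had more Vim and Nes than the other traced ependymal cells, by 1.52 times (1.46 to 1.58) and 2.80 times (1.58 to 4.62). Gfap had 2 UMIs in cycling cells, or 2.70 CPM. In all, 4 of 6 counted members were past 2-fold in cycling cells, Krt8, Nes and Krt18 higher and Gfap lower, beside 16.8% of all genes. The median log2 difference was 0.83 over the members and 0.094 over all genes, but Krt18 and Gfap rest on 4 and 2 UMIs. The count was 2 after Seurat integration or a stricter cell filter and 1 with a pseudocount of 10. A separate sub-cluster of 98 traced cells led by the replication genes Hells, Stmn1 and Mcm3 was not named cycling and had a median of 3032 UMIs. Its Vim stood at 2489 CPM (2356 to 2628) and its Nes at 21.0 CPM (10.5 to 37.5). Vim was about as high, at 2477 CPM, in the 687 traced remaining cells led by Atf3, where Nes was 5.82 CPM.

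Anxa8-high cells were the other class with keratins. Krt8 stood at 6.04 CPM in the traced cells, 6.22 times the remaining cells (3.96 to 9.90). These cells held 54 of the 130 traced ependymal-like Krt8 UMIs, more than the 42 of the cycling cells. The 93 non-traced cells held 8 UMIs, or 9.81 CPM, 16.2 times the level of the remaining cells, which rested on 3 UMIs (3.90 to 95.0). Krt18 stood at 4.14 CPM in the traced cells, 2.65 times the remaining cells (1.70 to 4.11). Thinned, 1.07% of traced Anxa8-high cells had a Krt8 UMI (4.15% unthinned, at a median of 9388 UMIs). Among the 844 traced cells, 35 had Krt8, 28 had Krt18 and 7 had both. Krt8 and Nes were the members past 2-fold in traced Anxa8-high cells, 2 of 5 counted, beside 1.83% of all genes, and Krt8 (higher) and Gfap (lower) in the non-traced cells, 2 of 5 beside 7.3%. With a pseudocount of 10 no member was past 2-fold in Anxa8-high cells of either library (traced log2 0.62 for Nes and 0.55 for Krt8). When the classes were rebuilt after Seurat integration, the traced difference was 0.75 for Nes and 1.26 for Krt8 on the log2 scale, with Krt8 under the minimum of 5 CPM, and the direction of Gfap turned in the non-traced cells.

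**Figure D5:**
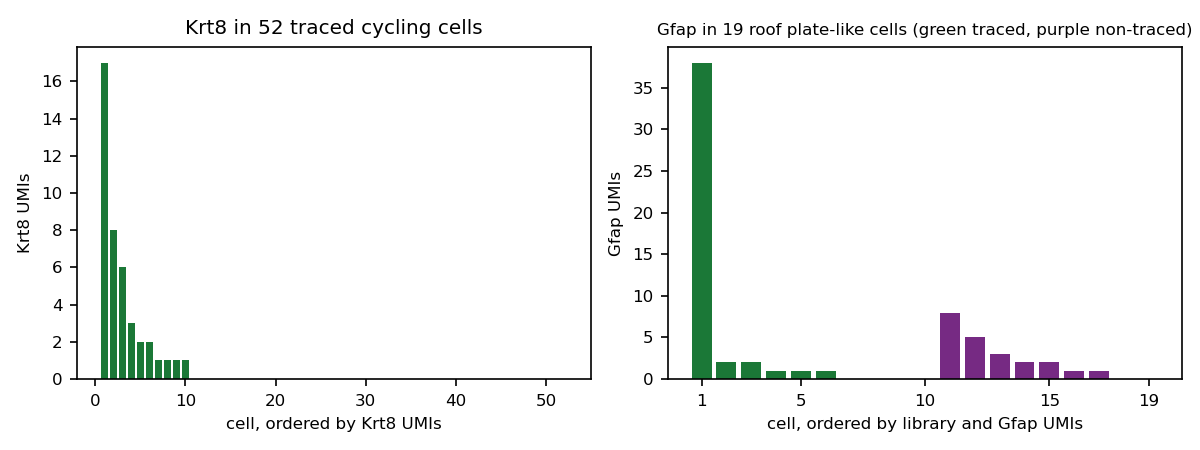
UMIs per cell of Krt8 in traced cycling ependymal cells and of Gfap in roof plate-like cells (traced green, non-traced purple), each bar 1 cell, ordered by UMIs. Krt8 reached 17 UMIs in 1 of 52 cycling cells and was at 0 in 42, and 1 traced roof plate-like cell held 38 of 67 Gfap UMIs.

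Other filament genes and the proteins that anchor filaments were taken as lists of 20 and 18 genes. Between traced and non-traced ependymal-like cells, 0 of 5 counted filament genes and 0 of 12 counted linkers were past 2-fold, beside 2.85% of all genes. Between non-traced ependymal-like and endothelial-like cells, 3 of 6 filament genes were higher and 1 lower in ependyma, and 5 of 12 linkers were higher and 2 lower. Sync, which encodes syncoilin, a partner of desmin, stood at 7.71 CPM in ependyma against 0.0169 CPM in endothelium. The desmosomal genes Dsg2 (73.6 against 0.113 CPM), Pkp2 (10.3 against 0.552 CPM) and Dsc2 (7.13 against 0.0338 CPM) were higher in ependyma, as was the chaperone gene Cryab (229 against 2.90 CPM). The opposite held for Jup, which encodes plakoglobin (30.3 against 160.0 CPM), and the small heat shock gene Hspb1 (329 against 3144 CPM). Ependymal-like cells thus had the higher level of several desmosome genes, though not of Jup, in a comparison where 48% of all genes were past 2-fold.

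Linkers were also compared between the mural classes. Against pericyte-like cells, smooth muscle-like cells had 6 of 9 counted linkers higher and 1 lower, beside 23.3% of all genes past 2-fold either way. Plec, which encodes plectin, the crosslinker of filaments to other structures, stood at 170 against 35.2 CPM, Dst at 347 against 142 CPM and Macf1 at 447 against 208 CPM, both of them plectin relatives. Jup was the lower one, at 60.5 against 133 CPM. Plec was also higher in arterial than in capillary cells, at 294 against 144 CPM, where 0 of 3 counted members and 2 of 9 linkers were past 2-fold beside 4.2% of all genes.

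In cycling ependymal cells 5 of 7 counted filament genes were higher and 1 lower, and no linker of 12 was past 2-fold, beside the 16.8% of all genes. The lamin genes, whose proteins line the nucleus, were among them: Lmnb1 at 173 against 22.8 CPM in other traced ependymal cells, Lmna at 207 against 92.4 CPM and Lmnb2 at 24.3 against 11.3 CPM. Prph, which encodes peripherin, a filament of peripheral neurons, stood at 18.9 CPM on 14 UMIs in 8 cells against 0.31 CPM, and Krt20, a keratin of gut epithelium, at 10.8 against 1.57 CPM. Sync was the lower gene, at 4.05 CPM on 3 UMIs against 10.0 CPM.

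Midline cells, floor and roof plate-like together, had 0 of 5 other filament genes past 2-fold against other ependymal cells in either library. Linkers were lower there, 3 of 12 in the non-traced and 2 of 12 in the traced library, beside 5.7% and 6.01% of all genes in both directions. Hspb1 stood at 98.0 against 440 CPM in the non-traced and at 91.4 against 415 CPM in the traced library, and Pkp2, which encodes a desmosome plaque protein, at 3.24 against 13.7 CPM and at 2.29 against 16.5 CPM. Of the members, 0 of 4 were past 2-fold in non-traced and 2 of 4 (Nes and Gfap higher) in traced midline cells. Without the roof plate-like cell with 38 Gfap UMIs, the Gfap difference was 0.15 on the log2 scale, and after Seurat integration it was -0.38.

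For each member, the genes whose log2(CPM + 1) followed it most closely over 12 library-by-class groups were sought among genes of at least 50 CPM in a group. These correlations describe 12 groups that share 2 libraries and a common set of classes. For Des the closest were Gm13861 (Pearson's r 0.999), Ppp1r14a, which encodes a smooth muscle phosphatase inhibitor (0.996), and Mrvi1 (0.995). For Nes they were Ehd4 (0.983), Tnfsf12 (0.981) and Emp2 (0.979), and for Synm Fam168a (0.937), Synpo2 (0.921) and Myo1e (0.904). For Vim they were Mplkip (0.905), Pim1 (0.901) and Gadd45g (0.866), and for Gfap Coa6 (0.964), Atxn7l3b (0.961) and Bbs4 (0.944). For Krt8 they were Ptma (0.975), Kpnb1 (0.951) and Hsp90b1 (0.948), and for Krt18 Hdgfrp2 (0.973), Supt16 (0.971) and Ankrd54 (0.969), while Krt15 had too few counts for a list. With Spearman's rho in place of Pearson's r, 2 of these 21 genes stayed among the closest, so the named genes depend on the measure.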

How the data were processed

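Viable CD45- CD133+ cells of adult mouse spinal cord were sorted as DNGR-1 traced or non-traced and sequenced as 1 library each. The values are UMI counts per gene and cell as deposited by the authors, made with Cell Ranger 3.0.2 and STAR 2.5.1b on mm10 and handled with R 3.6.0 and Seurat 3 according to the submitters' processing notes. All deposited cells were used. The totals were 233318692 UMIs in the non-traced and 46530507 in the traced library. With 3′ counts a level depends on how well a gene's 3′ end is annotated, so genes were not compared with each other. No sample column was left unused (0).

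Cells of both libraries were clustered with scanpy 1.11.5 and igraph 0.11.9 (2000 features, 20 components, 20 neighbours, resolution 0.8), with every intermediate filament gene and the reporter row left out. A class was named where 70% of its markers were found in 50% of cells of a cluster, and a subtype or segment where 3 markers, each in 10% of cells, were raised at least 2-fold (ependymal) or 1.5-fold (endothelial). Clusters that met this for several classes were called mixed and left out. These thresholds were set after seeing the data. Scrublet called 2170 non-traced cells (8.54%) doublets and 0 of 4825 traced cells, where it has not worked, so called cells were kept and their removal was an alternative.

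CPM, differences with a pseudocount of 1, a minimum of 5 CPM and a 2-fold mark, Poisson, Clopper-Pearson and conditional binomial intervals (95%, SciPy 1.17.1) and a floor of 3 counts were used. With 1 library per group no test was run. The design foresaw this. The scripts were tested on simulated counts. Python 3.11.15, NumPy 2.4.6 and matplotlib 3.10.9 were used, and Seurat 5.3.0 for the alternative integration. Gene positions are from GENCODE M21 on GRCm38.

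The text names the 8 members, genes of the 2 lists past 2-fold or at 50 CPM or more (up to 10 per comparison) and the 3 genes nearest to each member. The members, lists and markers were chosen with earlier results of these data known. Markers not listed in the tables, such as Shh, Lmx1a and Pkd1l2, were not analysed here, nor were Krt5, Krt7, Krt14, Krt17 and Eppk1 of the lists. The alternatives were another resolution, stricter cell filter, Seurat integration, other pseudocounts, minimums and totals, per-cell means, no doublets and no cells with markers of another class, and, added after seeing the data, centring within libraries and leaving out shared barcodes, single top cells or a sub-cluster.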

Additional observations from a re-analysis of the deposited data

Results flagged for a closer look

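Gfap was found outside the compared classes. In the 87 non-traced cells that carried both endothelial and astrocyte markers and entered no comparison, it stood at 182.7 CPM (156.2 to 212.3, 170 UMIs in 54 cells), above the 0.749 CPM of endothelial-like cells and the 15.7 CPM of the remaining ependymal cells of the same library.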

How the results depend on the processing

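The number of members past 2-fold was counted again under each alternative. In cycling ependymal cells it was 4, and 2 after Seurat integration, 2 with the stricter cell filter and 1 with a pseudocount of 10. In non-traced midline cells it was 0, and 1 at resolution 1.2 and 2 with no minimum CPM. In mural-like against endothelial-like cells it was 1, and 3 with the stricter filter, under which no smooth muscle-like class was found, and 4 without cells with 2 markers of the other class. In traced against non-traced ependymal-like cells it was 1, and 0 with a pseudocount of 10 and 2 with no minimum, and in ependymal-like against endothelial-like cells 2, and 6 with no minimum. Of the 21 genes closest to the members, 2 remained with Spearman's rho and 10 with a minimum of 10 CPM. Gfap turned direction after Seurat integration, from 1.36 to -0.38 on the log2 scale in traced midline cells and from -1.84 to 0.97 in non-traced Anxa8-high cells, and in traced against non-traced Anxa8-high cells from 0.57 to -2.06, where Nes moved from -0.70 to -3.17. Krt8 in cycling cells was 4.29 and between 2.48 (pseudocount 10) and 3.87 under the alternatives that moved it. Nes in traced Anxa8-high cells dropped to 0.75 after integration, and Krt8 there to 1.26. A pseudocount of 0.1, per-cell means, another total, centring within libraries, and leaving out called doublets or shared barcodes changed none of these counts. The causes were not tested. No paired analysis was possible because each group is 1 library. Depth limits Krt15, Krt18 and Gfap in small classes, which rest on 1 to 12 UMIs in several of them.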

Other observations

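Fibroblast-like cells, 32 of the non-traced library, stood at 953 CPM for Vim and at 50.3 CPM for both Nes and Synm, below endothelial-like cells for each of the 3 genes. Des was also found in cells that carried markers of several vascular classes, at 38.6 CPM in those with endothelial and pericyte markers, 68.6 CPM in those with endothelial, pericyte and smooth muscle markers and 18.8 CPM in endothelial cells with some pericyte markers, all between the endothelial-like level of 2.01 CPM and the pericyte-like level of 119.5 CPM.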
